A study of Mus musculus with 2 samples.

Results

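The genes described here were the 10 G1 cyclins, kinases and CDK inhibitors Ccnd1, Ccnd2, Ccnd3, Ccne1, Ccne2, Cdk4, Cdk6, Cdkn1b, Cdkn2a and Cdkn2b. They were taken by gene name from the 44291 genes of each expression table, and all 10 were found, with 1 row each. The tables come from RNA-seq of cultured primary FAPs of the mouse. FAPs (fibro-adipogenic progenitors) live between muscle fibres and can turn into adipocytes. There was 1 PRP library and 1 control library, so 2 libraries in all and no replicate in either group.

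Both libraries were made from FAPs with the genotype label WT, and the labels give neither the strain nor the age of the mice. One culture received platelet-rich plasma (PRP) and the control culture vehicle. Both were then held in adipogenic induction medium based on DMEM, in which insulin was at 10 μg/ml, dexamethasone at 0.25 μM, IBMX at 0.5 mM and FBS at 20%. PRP is the treatment in the labels, but the study's own account of its transcriptome has exosomes isolated from human PRP. The number of mice behind each culture and the time at which RNA was taken are not given in the sources used here, and the methods of the study set only an upper limit to the days of induction.

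G1 is the phase in which a cell commits to copying its DNA. D-type cyclins, which mitogens induce, bind the kinases CDK4 and CDK6 and start the phosphorylation of the retinoblastoma protein. E-type cyclins then activate CDK2, complete that phosphorylation and release E2F factors, which switch on the replication genes. Inhibitors of the INK4 family, such as p15 (Cdkn2b) and p16 (Cdkn2a), bind CDK4 and CDK6, whereas p27 (Cdkn1b), of the CIP/KIP family, binds cyclin-CDK2 complexes. Preadipocytes given induction medium can divide before they differentiate, and they leave the cycle as they mature. In a bulk library, fewer dividing cells and less RNA of a gene per cell cannot be told apart.

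The study names the microRNAs let-7f-5p and miR-16-5p as the active cargo of the exosomes, and several of these G1 genes are textbook targets of both families. Their mature mouse sequences are shown first, from RefSeq (GRCm38.p6), 5′ to 3′, with the seed (bases 2 to 8) in capitals. The let-7f-5p sequence lies at chr13:48537889-48537910 and chrX:151912353-151912374, and that of miR-16-5p at chr14:61631936-61631957 and chr3:69009918-69009939.
let-7f-5p: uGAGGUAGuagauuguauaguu
miR-16-5p: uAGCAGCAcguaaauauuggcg

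The sequence opposite the miR-16 seed, TGCTGCT, was searched on the sense strand of the longest annotated 3′UTR of each gene (GENCODE M21, GRCm38). It was found in 6 of the 10 genes, namely Ccnd1, Ccnd2, Ccnd3, Ccne1, Cdk6 and Cdkn2b. Among the 10292 genes tested that had a 3′UTR, 24.6% held it. The 3′UTRs of the G1 genes ran from 264 bases for Cdkn2a to 10217 bases for Cdk6, against a median of 1155 bases, and a longer one has more room for a match. One match per gene is shown with the bases around it and the 7 matching bases in capitals. Those of Ccnd1, Ccnd2, Ccne1 and Cdkn2b lie on the minus strand, at chr7:144930388-144930415, chr6:127128535-127128562, chr7:38098017-38098044 and chr4:89306733-89306760. Those of Ccnd3 and Cdk6 lie on the plus strand, at chr17:47599280-47599307 and chr5:3524531-3524558.
Ccnd1: tgtgcatgccaccaTGCTGCTggcccgg
Ccnd2: aatgtttcacggtgTGCTGCTattttag
Ccnd3: actgttgctttgctTGCTGCTtagcttc
Ccne1: tcttattttgtaagTGCTGCTatgtcta
Cdk6: caagttgcacagggTGCTGCTatctcaa
Cdkn2b: ggatctccacaagcTGCTGCTgcagggg

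In Ccnd2, Ccne1 and Cdk6 an A follows the match and makes it 8 bases long (TGCTGCTA), a form that 4.44% of the tested genes held. The Cdk6 3′UTR held 3 matches, of which 2 overlapped. The let-7 match CTACCTC was found in 1 of the 10 genes, Cdk4, against 9.86% of the tested genes. The other form of let-7 match, TACCTCA, pairs with bases 2 to 7 and has an A opposite base 1. This form, searched after the data were seen, was found in Ccnd1, Ccnd2 and Cdk6, against 10.7% of the tested genes. The matches in Cdk4 (plus strand, chr10:127067659-127067686), Ccnd1 (minus strand, chr7:144930591-144930618) and Ccnd2 (minus strand, chr6:127128293-127128320, the first of 3) are shown in the same way.
Cdk4: ctagggcccgaggcCTACCTCccctcat
Ccnd1: gttcctgttcacaaTACCTCAtgtatca
Ccnd2: aagagagtattcttTACCTCAggtttac

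The values below are FPKM, reads scaled by exon length and by the reads assigned to genes in the library, as deposited by the authors. The PRP library held 40120843 assigned reads and the control library 34139741. For each of the 10 G1 genes both FPKM values gave back whole reads, from 352 reads for Cdk6 in the PRP library to 10666 for Ccnd2 in the control library. Each ratio is the PRP FPKM over the control FPKM. It carries an exact Clopper-Pearson 95% interval from the reads, counted as pairs, which covers counting error only and compares 2 libraries, not 2 treatments. The log2 difference is log2(PRP FPKM + 1) minus log2(control FPKM + 1), which understates the change of low genes. A filter kept the 13401 genes whose FPKM averaged 1 or more over both libraries, and "tested" means only that a gene passed it, since no p-value can be had from 1 library per group. The filter kept 9 of the 10 G1 genes and left out Cdk6, which was low in both libraries.

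Most of the G1 genes, which include both drivers and inhibitors of cell cycle entry, were lower in the PRP library. Cdkn2b, an inhibitor, was the exception. Of the 9 tested G1 genes, 8 were lower, against 49.1% of all tested genes, and 1 was higher, against 50.9%. The genes were chosen with earlier results of these data known, so the shares of all tested genes are given as description only. The median log2 difference of the 9 genes was -0.53, against 0.01 over all tested genes. At least 1.5-fold lower were 4 of the 9 genes (Ccnd1, Ccnd2, Ccnd3 and Ccne1), against 4.57% of all tested genes, and none was at least 1.5-fold higher, against 6.15%. With a pseudocount of 5, which draws low genes towards no change, 1 of the 9 (Ccne1) was at least 1.5-fold lower, against 1.53% of all tested genes. At least 2-fold lower was Ccne1 alone, against 0.828%. The interval lay below a ratio of 1 for 8 of the 9 genes, against 26.1% of the 12369 tested genes with an interval, and above it for Cdkn2b, against 26.2%. It included 1 for none of the 9, against 47.7%. Cdk6, outside the filter, also had an interval below 1.

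**Figure D1:**
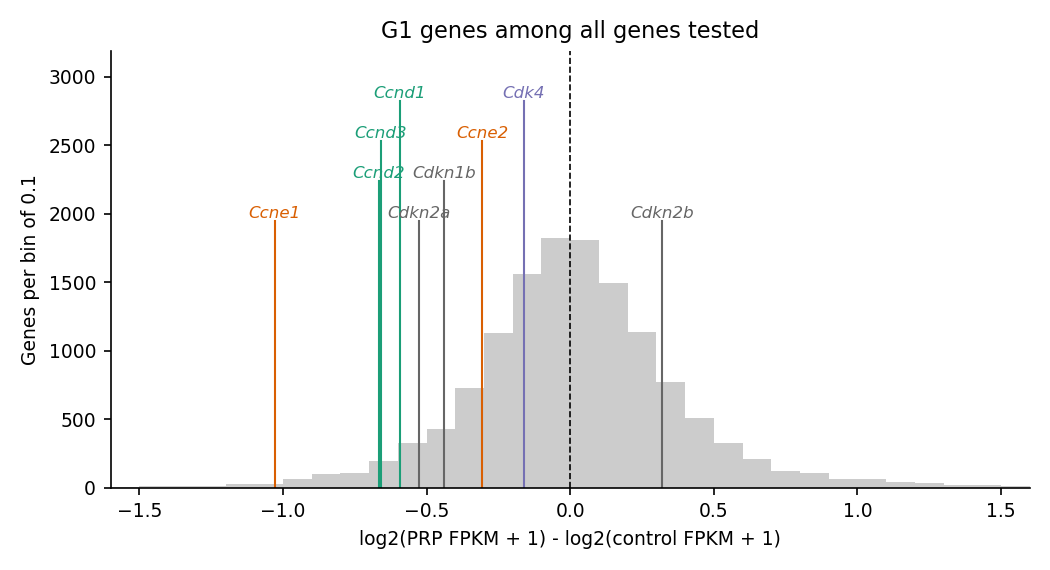
Histogram of the log2 difference (x axis, PRP minus control on the log2(FPKM + 1) scale) of the 13401 tested genes (y axis, genes per bin of 0.1; genes beyond the ends of the axis are not drawn), with a coloured line for each of the 9 tested G1 genes (green, D-type cyclins; orange, E-type cyclins; purple, Cdk4; grey, CDK inhibitors). Of the 9 lines 8 stand left of 0, Ccne1 farthest at -1.03, and Cdkn2b stands right of 0 at 0.32.

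D-type cyclins, the mitogen sensors of the cycle, were all lower in the PRP library. Ccnd1 (ENSMUSG00000070348, chr7:144929931-144939925, minus strand) had 28.6 FPKM with PRP and 43.7 FPKM in the control. Its ratio was 0.655 (interval 0.623 to 0.689) and its log2 difference -0.59, close to the 1.5-fold limit of 0.58. Ccnd1 thus made up most of the D-type cyclin FPKM, at 56.6% with PRP and 54.8% in the control. Ccnd2 (ENSMUSG00000000184, chr6:127125162-127152193, minus strand), whose protein acts beside cyclin D1 on the same kinases, had 20.5 FPKM against 33.2 FPKM in the control library. Its ratio of 0.619 (0.593 to 0.645) had the narrowest interval of the 10 genes, since it rests on the most reads.

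Ccnd3 (ENSMUSG00000034165, chr17:47505051-47599691, plus strand), which encodes a cyclin linked to differentiating cells such as muscle and lymphoid cells, was the least abundant D-type cyclin. It had 1.43 FPKM with PRP and 2.83 FPKM in the control, a ratio of 0.503 (0.429 to 0.590). Its log2 difference of -0.66 was about that of Ccnd2 (-0.67), although its ratio was lower, because the pseudocount weighs more on low values. Set against each other within the libraries, which takes out their scaling, Ccnd1 was 20.1 times Ccnd3 with PRP and 15.4 times in the control. The ratio of these ratios was 1.30 (exact 95% interval 1.10 to 1.54), so Ccnd3 was lower by more than Ccnd1 beyond counting error. For Ccnd2 against Ccnd3 it was 1.23 (1.04 to 1.45). Ccnd1 and Ccnd2 differed from each other by 1.06 (0.992 to 1.13), an interval that includes no difference, although the narrower interval from single reads in place of pairs left it out.

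E-type cyclins, the partners of CDK2, were lower to unequal degrees. Ccne1 (ENSMUSG00000002068, chr7:38097984-38107534, minus strand) had 4.68 FPKM with PRP and 10.6 FPKM in the control. Its ratio of 0.442 (0.378 to 0.516) was the lowest of the 10 genes, and 0.769% of all tested genes had a lower log2 difference than its -1.03. Ccne2 (ENSMUSG00000028212, chr4:11191351-11204779, plus strand) had 7.29 FPKM against 9.24 FPKM, a ratio of 0.788 (0.698 to 0.892). Ccne1 was 1.15 times Ccne2 in the control library and 0.642 times in the PRP library, and the ratio of ratios was 0.561 (0.459 to 0.684). The leading E-type cyclin was therefore Ccne1 in the control library, at 53.4% of their summed FPKM, and Ccne2 in the PRP library, at 60.9%.

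**Figure D2:**
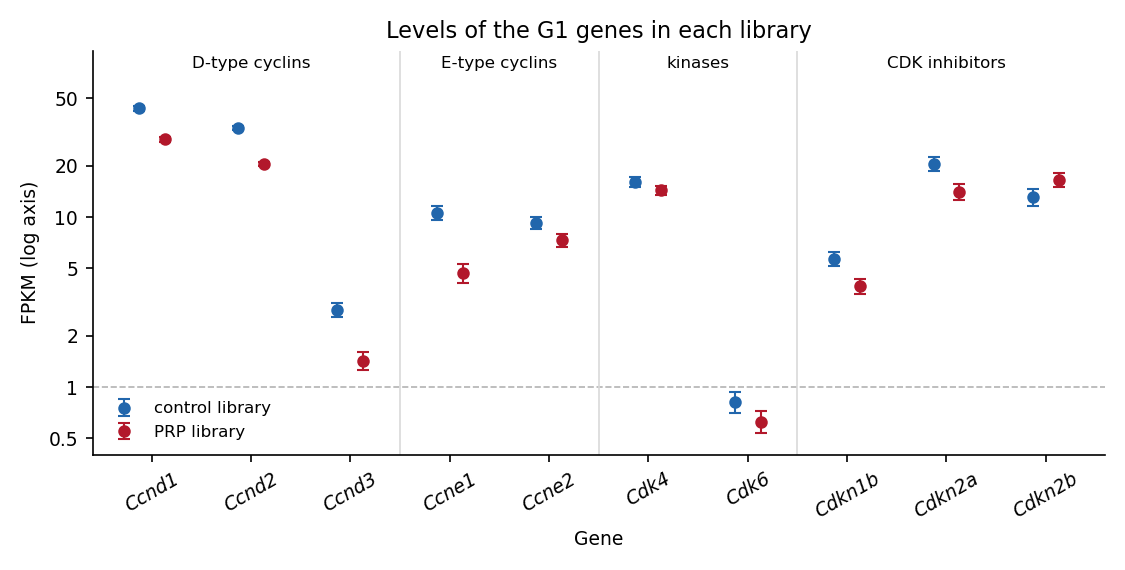
FPKM (y axis, log scale) of the 10 G1 genes (x axis) in the control library (blue) and the PRP library (red), with exact Poisson 95% intervals of the read pairs as bars, which cover counting error only. The dashed line marks an FPKM of 1, and only Cdk6 lies below it in both libraries, at 0.627 and 0.817 FPKM.

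Both kinases that D-type cyclins activate were lower in the PRP library, and neither was set against a cyclin in a test. Cdk4 (ENSMUSG00000006728, chr10:127063534-127067920, plus strand) had 14.3 FPKM with PRP and 16.1 FPKM in the control, a ratio of 0.888 (0.809 to 0.974). Of all tested genes, 28.1% had a lower log2 difference than its -0.16. Cdk6 (ENSMUSG00000040274, chr5:3341485-3531008, plus strand), the kinase with overlapping function that prevails in blood cells, had 0.627 FPKM against 0.817 FPKM. Its ratio was 0.768 (0.623 to 0.946). The ratio of ratios of Cdk4 to Cdk6 was 1.16 (0.919 to 1.46), so a difference between the kinases was not detectable at this depth. Cdk4 was the main kinase by far, with 95.8% of the summed FPKM of the pair with PRP and 95.2% in the control.

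The CDK inhibitors did not move together. Cdkn1b (ENSMUSG00000003031, chr6:134920401-134925513, plus strand), which encodes p27, had 3.91 FPKM with PRP and 5.66 FPKM in the control, a ratio of 0.691 (0.600 to 0.798). Set against Ccnd1, its ratio of ratios was 1.06 (0.908 to 1.23), so that this inhibitor and the most abundant cyclin were lower by amounts that could not be told apart. Cdkn2a (ENSMUSG00000044303, chr4:89274471-89294653, minus strand) had 13.99 FPKM against 20.6 FPKM, a ratio of 0.679 (0.586 to 0.787). This gene encodes both p16 and, from another first exon and reading frame, the p53 regulator ARF, and a gene-level value does not separate these transcripts.

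Cdkn2b (ENSMUSG00000073802, chr4:89306299-89311039, minus strand), which encodes p15 and is a known target of TGF-β signaling, was the only one of the 10 genes that was higher in the PRP library. It had 16.6 FPKM with PRP and 13.1 FPKM in the control, a ratio of 1.27 (1.10 to 1.47), from 924 and 620 reads. Of all tested genes, 83.7% had a lower log2 difference than its 0.32. With a wider interval, which leaves 0.1% outside, its bounds were 0.995 and 1.62 and included no change. Cdkn2a and Cdkn2b are neighbours on the same strand, and in the control library Cdkn2a was 1.58 times Cdkn2b, whereas in the PRP library it was 0.845 times. The ratio of ratios was 0.536 (0.435 to 0.661), the largest departure among the 7 pairs compared.

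**Figure D3:**
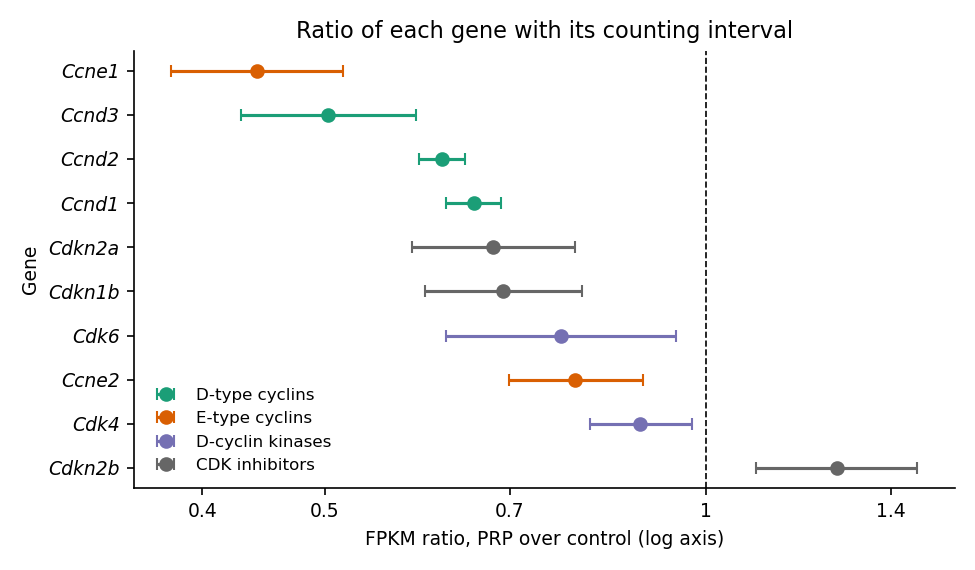
FPKM ratio of the PRP library over the control library (x axis, log scale) for each G1 gene (y axis), coloured by role, with exact Clopper-Pearson 95% intervals for counting error as bars. The intervals of 9 genes end below 1 (dashed line), and that of Cdkn2b starts at 1.10.

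The order of levels shifted at 2 places. From high to low, the PRP library had Ccnd1, Ccnd2, Cdkn2b, Cdk4, Cdkn2a, Ccne2, Ccne1, Cdkn1b, Ccnd3 and Cdk6. The control library had Cdkn2a in the third place and Cdkn2b in the fifth, and Ccne1 ahead of Ccne2. Cdk4 and Cdkn2a in the PRP library, with a ratio of 1.02 (0.902 to 1.16), were the only neighbours in either order whose interval included equal levels. Of the other neighbours, those whose interval came nearest to equal levels were Ccne1 over Ccne2 in the control library (1.15, interval 1.01 to 1.30) and Ccne1 over Cdkn1b in the PRP library (1.20, interval 1.01 to 1.41).

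Summed by role, the D-type cyclins had 50.6 FPKM with PRP and 79.7 FPKM in the control, and the E-type cyclins 12.0 FPKM and 19.8 FPKM. The sums of Cdk4 and Cdk6 lay closer together, at 14.96 FPKM and 16.96 FPKM. There were thus 3.38 D-type cyclin units of FPKM per unit of kinase with PRP and 4.70 in the control. The 4 INK4 inhibitors, including Cdkn2c and Cdkn2d, summed to 35.1 FPKM and 40.7 FPKM. D-type cyclin FPKM per INK4 FPKM was 1.44 with PRP and 1.96 in the control. Cdkn2b took 47.2% of the INK4 sum with PRP and 32.1% in the control.

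**Figure D4:**
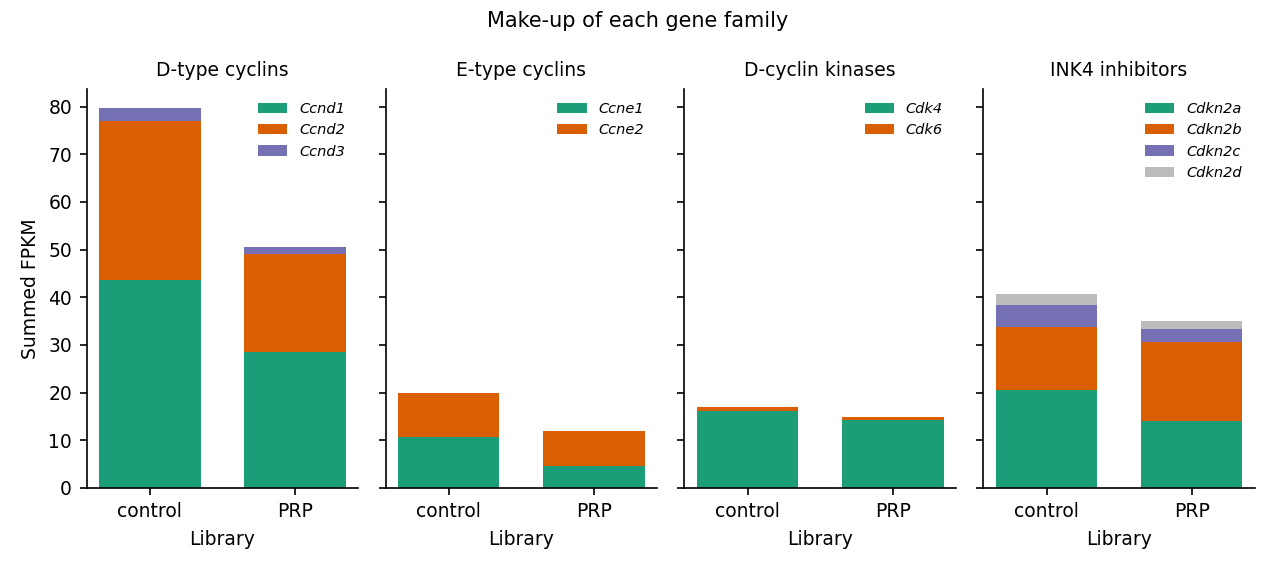
Summed FPKM (y axis) of each gene family in the control and PRP libraries (x axis), with the part of each gene in colour. The D-type cyclin bars stand at 79.7 FPKM (control) and 50.6 FPKM (PRP), the kinase bars at 16.96 and 14.96 FPKM, and within the INK4 bar the part of Cdkn2b is larger in the PRP library.

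Ratios of the 10 genes were also set beside the matches in their 3′UTRs, as a description with no test. Of the 6 genes with TGCTGCT, 5 were lower in the PRP library, against 49.1% of all tested genes. Their ratios ran from 0.442 for Ccne1 to 0.768 for Cdk6, and Cdkn2b was higher. The 4 genes at least 1.5-fold lower, against 4.57% of all tested genes, were all among these 6. Over the 10292 tested genes with a 3′UTR, the median log2 difference was -0.03 for genes with TGCTGCT and 0.01 for genes without it. The 4 genes without it (Ccne2, Cdk4, Cdkn1b and Cdkn2a) were all lower as well, with ratios from 0.679 for Cdkn2a to 0.888 for Cdk4. The other form of miR-16 match, GCTGCTA, which is also part of TGCTGCTA, was searched after the data were seen. It was found in Ccnd1, Ccnd2, Ccnd3, Ccne1 and Cdk6, against 10.0% of the tested genes. In Cdk6 it lay only within the 8-base match already shown. All 5 genes were lower, against 49.1% of all tested genes. For let-7, Cdk4, with CTACCTC, had a ratio of 0.888, and the 3 genes with TACCTCA had ratios of 0.655 (Ccnd1), 0.619 (Ccnd2) and 0.768 (Cdk6).

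The genes around these regulators were described from lists by role. Of 38 other G1 regulators 33 were tested, with 22 lower and 11 higher, against 49.1% and 50.9% of all tested genes, and a median log2 difference of -0.09. Of these, 2 (6.06%) were at least 1.5-fold lower, against 4.57% of all tested genes, and 1 was at least 1.5-fold higher, against 6.15%. Their intervals lay below 1 for 8 genes and above 1 for 5 genes, 24.2% and 15.2% of the list, against 26.1% and 26.2% of all tested genes with an interval.

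Among the other CDK inhibitors, Cdkn2c, which encodes the INK4 protein p18, was lower (2.67 against 4.63 FPKM, ratio 0.577, interval 0.464 to 0.718). Cdkn1a, which encodes the p53 target p21, was higher (15.2 against 10.1 FPKM, ratio 1.496, interval 1.35 to 1.65). Cdkn1a and Cdkn2b were the only ones of the 7 CDK inhibitor genes with an interval above 1. Over all tested genes with an interval, 26.2% had one above 1, a share close to this. All 3 pocket protein genes were lower, against 49.1% of all tested genes. Rb1, the retinoblastoma gene itself, had the lowest ratio (1.52 against 2.81 FPKM, ratio 0.540, interval 0.445 to 0.651), before Rbl2 (3.89 against 5.05 FPKM, ratio 0.771, interval 0.689 to 0.863). The interval of Rbl1 included no change (ratio 0.891, interval 0.762 to 1.04).

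Genes that act on CDK2 and on protein turnover differed by small amounts. None of the 12 tested was past 1.5-fold, against 4.57% of all tested genes lower and 6.15% higher by that much. In a list this small, such a count is near these shares. For Cks1b, a CDK subunit that helps in the breakdown of p27, the ratio was 0.794 and its interval of 0.5812 to 1.082 included no change. Cdk7, the kinase that activates other CDKs, had 13.1 against 11.4 FPKM (ratio 1.15, interval 1.04 to 1.27). Ubac1, a partner of the ubiquitin ligase for p27, had a ratio of 0.804 (0.716 to 0.903), and Fbxw7, which targets cyclin E for breakdown, a ratio of 1.13 (1.01 to 1.27). Of the 9 tested E2F and DP factors 7 were lower, against 49.1% of all tested genes. The interval lay below 1 for 3 of the 9 (33.3%, against 26.1% of all tested genes with an interval). E2f8, a repressor, had a ratio of 0.6996 (0.579 to 0.844) and E2f5 a ratio of 0.744 (0.520 to 1.06).

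Of the 5 tested transcriptional regulators 4 were higher, against 50.9% of all tested genes. For 2 of the 5 the interval lay above 1, against 26.2% of all tested genes with an interval. Myc, a growth regulator that is known to induce Ccnd2 and to repress Cdkn2b and Cdkn1a, had 10.4 FPKM with PRP and 5.83 FPKM in the control, a ratio of 1.79 (1.54 to 2.07). It was the 1 gene of the 33 that was at least 1.5-fold higher. Foxo3, a transcription factor known to induce Cdkn1b, had 6.79 against 5.90 FPKM (ratio 1.15, interval 1.05 to 1.26).

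Genes downstream in the cycle were described as replication genes and mitotic genes. Of 30 replication genes and E2F targets, all tested, 18 were lower and 12 were higher, against 49.1% and 50.9% of all tested genes, with a median log2 difference of -0.07. Their intervals lay below 1 for 10 of 29 genes (34.5%, against 26.1% of all tested genes) and above 1 for 2 (6.90%, against 26.2%). On the log2(FPKM + 1) scale the largest differences were those of the thymidine kinase gene Tk1 (2.09 against 3.74 FPKM, ratio 0.558, interval 0.468 to 0.664), the DNA ligase gene Lig1 (21.7 against 32.5 FPKM, ratio 0.667, without whole reads) and Uhrf1, which helps to keep DNA methylation (ratio 0.730, interval 0.658 to 0.808). All 16 mitotic genes were lower, against 49.1% of all tested genes, with a median of -0.47. Intervals lay below 1 for 13 of 15 (86.7%, against 26.1% of all tested genes with an interval). At least 1.5-fold lower were 3 of the 16, against 4.57% of all tested genes. The largest differences on the log2(FPKM + 1) scale were those of Mki67, Ccnb2 and Top2a, with ratios from 0.577 to 0.645. Whether the lists differ from one another was not tested. The study itself reports more BrdU incorporation and higher mRNA of cell cycle markers in cultured FAPs given exosomes from young donors. That direction is opposite to the direction of the mitotic genes and of the D-type and E-type cyclins here. The primer list of the study includes Ccnd1, but its text does not name the markers measured. Whether those cultures match these libraries in medium and time is not given in the sources used here.

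**Figure D5:**
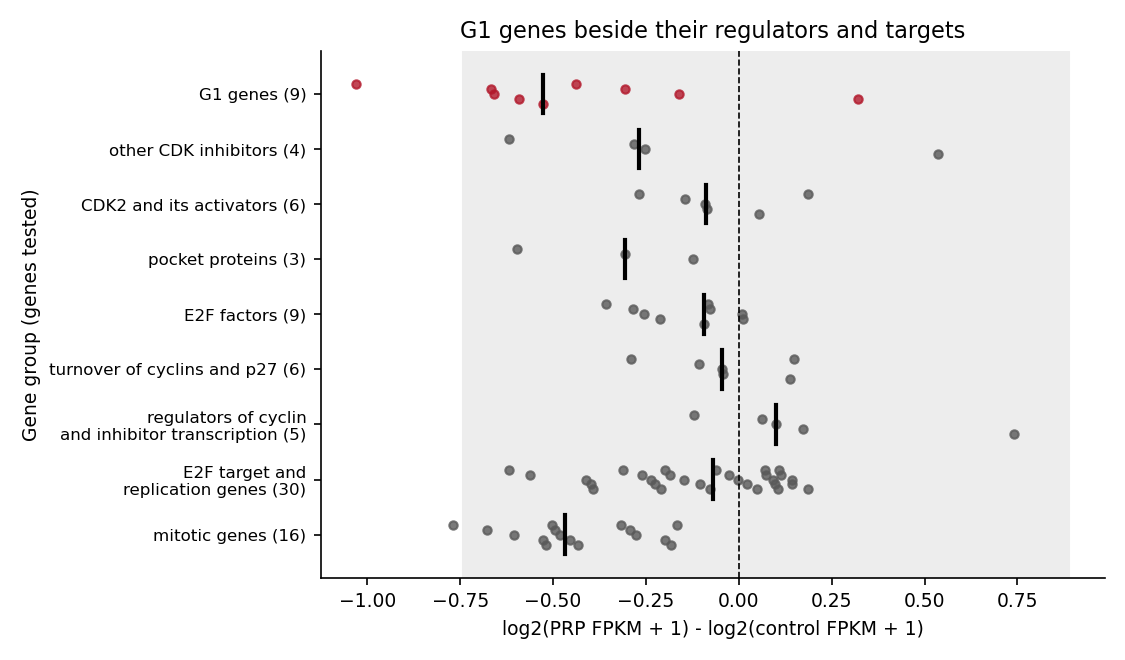
Log2 difference (x axis, PRP minus control on the log2(FPKM + 1) scale) of each tested gene in the G1 list (red) and in the lists of its regulators and targets (grey), with the number of tested genes beside each list (y axis). Black bars are medians, from -0.53 for the G1 genes and -0.47 for the mitotic genes to 0.10 for the transcriptional regulators, and the shaded band from -0.74 to 0.89 holds 95% of all tested genes.

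Markers of the labelled cell type were checked in both libraries. Of 10 FAP markers 8 were tested, among them Pdgfra at 19.8 and 28.0 FPKM and Ly6a at 59.9 and 66.4 FPKM, while Pi16 and Lum were near 0. All 8 were lower in the PRP library, against 49.1% of all tested genes, with ratios from 0.374 for Dpt to 0.902 for Ly6a. The summed FPKM of the 10 was 336 against 570.1, with Col1a1 as the largest part (119 and 219 FPKM). The FAP markers and most of the G1 genes were thus lower in the same library. With 1 library per group these decreases cannot be told apart, and the part of the former in the latter was not tested. Summed adipocyte markers had 48.4 FPKM with PRP and 41.7 FPKM in the control, mostly from Fabp4 (40.7 and 33.6 FPKM, ratio 1.21, interval 1.15 to 1.27). Adipoq and Plin1, the others tested, had ratios of 1.05 (0.824 to 1.34) and 0.823 (0.657 to 1.02). Macrophage markers summed to 10.3 FPKM with PRP and 10.6 FPKM in the control (Cd68 higher at a ratio of 1.98 and Lyz2 lower at 0.648). Endothelial markers had 9.24 and 5.23 FPKM (2 of 6 tested, both higher), and platelet and erythroid markers 1.68 and 1.76 FPKM. Ptprc, the leukocyte marker, had 0.0109 and 0.0192 FPKM, and Cldn5, Pax7, Myog, Ppbp and Gp9 were listed at 0 in both. Mitochondrially encoded genes took 3.70% of all FPKM in the control and 2.06% with PRP.

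Exons of 6 G1 genes overlap exons of a gene on the opposite strand, over 23.4% of the exon length for Ccnd1, 19.7% for Cdk4, 17.4% for Ccne2 and less than 8% for Ccnd2, Ccnd3 and Cdk6. Whether reads were counted by strand is not given in the sources used here, so part of these reads may belong to the partner or have been left out. Ccne1, Cdkn1b, Cdkn2a and Cdkn2b share no exon bases with another gene.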

How the data were processed

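The members and gene lists were chosen with earlier results of these data known. Per the labels, TRIzol served for RNA extraction and a stranded mRNA kit for the libraries. Per the submitters' processing notes, reads were trimmed with fastp 0.23.4, mapped to mm10 with STAR 2.5.3a and counted with featureCounts. The deposited values are FPKM as the authors computed them. The annotation release and the conversion to FPKM are not given in the sources used here.

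Gene models were those of GENCODE M21 (GRCm38). FPKM was turned back into reads with the summed exon lengths, and 26406 of 28160 genes above 0 with a length (93.8%) gave whole reads in both libraries, within 0.001 reads. Of genes with up to 8 reads, 79.3% (PRP) and 80.3% (control) had an even number, so reads were divided by 2 and rounded down for intervals. Reads served for intervals only. The ratio of ratios is the conditional odds ratio of the read pairs of 2 genes in 2 libraries, with its exact interval. With 1 library per group no test was run and no p-value is given.

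All 10 members are named. Of the other lists, those with the largest log2 differences are named, 2 per role of the G1 regulators and 3 each for replication and mitosis, and markers are given as sums with examples. Alternatives were pseudocounts, filters, scalings, fold limits, interval levels and forms of seed match. Python 3.11.15, NumPy 2.4.6, pandas 2.3.3, SciPy 1.17.1 and matplotlib 3.10.9 were used, and the scripts were tested on simulated data.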

Additional observations from a re-analysis of the deposited data

How the results depend on the processing

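All 10 G1 genes kept their direction under pseudocounts of 0.1 and 5, both rescalings and centring on the median gene, and the counts of lower and higher genes stayed within 1.5 times. A pseudocount of 5 left 1 gene at least 1.5-fold lower (1.53% of all tested genes) and moved the median log2 difference to -0.29, and a 2-fold limit also left 1 gene, Ccne1. With the wider intervals, which leave 0.1% outside, 0 genes lay above a ratio of 1, and those of Cdk4 and Cdk6 included 1 as well. The 8-base seed match was found for let-7 in 0 genes and for miR-16 in 3, and the let-7 match with an A opposite base 1, added after the data were seen, in 3. With single reads in place of pairs, the interval of the Ccnd1 to Ccnd2 ratio of ratios left out no difference. These shifts follow from how each alternative is built. No paired analysis was possible because PRP and control are single libraries, and no library could be left out. The depth limits Cdk6 most, with 352 and 390 reads.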

Other observations

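Cdkn2a and Cdkn2b were also set beside their neighbours on chromosome 4, chosen after the values were seen. Mtap, which encodes an enzyme of methionine salvage (chr4:89137122-89181081), had 28.1 FPKM with PRP and 25.4 FPKM in the control, a ratio of 1.10 (95% interval 1.03 to 1.19). On the far side Dmrta1 was listed at 0 in both libraries. Klhl9, an adaptor of a ubiquitin ligase, had 6.40 against 7.45 FPKM (ratio 0.859, interval 0.760 to 0.970), and Hacd4, a gene of fatty acid elongation, 1.17 against 1.53 FPKM (ratio 0.762, interval 0.612 to 0.952). The type I interferon gene Ifnb1, in the same region, had 6 reads with PRP and 2 in the control, too few for a comparison. Focad, outside the filter, had a ratio of 0.707 (interval 0.558 to 0.896). Genes of this region thus lay on both sides of a ratio of 1, as did all tested genes (49.1% lower and 50.9% higher).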
